A study of Homo sapiens with 4 samples.

Results

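The genes of the MHC class II peptide-presenting molecules and of the invariant chain were followed in OCI-Ly10, an established human line of activated B-cell-type diffuse large B-cell lymphoma, after knockdown of the transcription factor MYC. The set was chosen by symbol: the array features annotated to any of 10 named genes. It held 46 of the 15154 features, for 8 of the 10 genes. HLA-DMA and HLA-DOA had no feature annotated to their symbols and were not analysed here. All 8 genes had a value on all 4 arrays and were tested among 6798 rows, of which 3954 were named genes and the rest single features without a symbol. CD74 had 12 features, HLA-DRB1 and HLA-DMB 7 each, HLA-DQA1 6, HLA-DRA 5, HLA-DPA1 and HLA-DPB1 4 each and HLA-DOB 1.

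Each of the 4 arrays set Cy5-labelled RNA of cells electroporated with the c-myc siRNA SMARTpool at 4 uM against Cy3-labelled RNA of electroporated control cells. On 2 arrays the controls had been electroporated in Solution T without siRNA and harvested, like their partners, at 6 h or 24 h. On the other 2 the controls carried a nonspecific siRNA against Renilla luciferase, and harvest was at 8 h or 24 h. All groups came from 1 cell line, every pairing of a time with a control had a single array, and 0 arrays had the dyes swapped. The labels do not say whether the cultures were separate, so p-values cannot be taken to cover the spread between independent cultures. In limma they combine a gene's own spread over these 4 arrays with a spread pooled over all rows. The pooled part weighs more in the test of MYC siRNA (3 residual and 6.31 prior degrees of freedom). Values are log2 ratios as deposited, taken as MYC siRNA over control, so that a positive value means more transcript with MYC siRNA. Neither the log base nor the direction is stated by the labels or the table; the direction is likely, from the dyes and from MYC itself, and any centring by the authors is unknown. Array medians lay between -0.034 and 0.014. MYC averaged -0.89 ± 0.39 (SD, n = 4; limma adjusted p = 0.0146), with -1.26 (6 h) and -1.03 (24 h) with no siRNA as control, and -0.94 (8 h) and -0.35 (24 h) with control siRNA. Ratios carry no level of either channel, so the B-cell markers can be read as changes but not as a check of identity. In bulk RNA of 1 line, fewer cells expressing a gene and less of its RNA per cell cannot be told apart.

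MHC class II molecules are pairs of an alpha and a beta chain that show peptides from endosomes to CD4+ T cells. B cells express them constitutively. New pairs assemble on the invariant chain, CD74, which fills the groove and steers them to endosomes, where cathepsins cut it down to a short peptide called CLIP. HLA-DM (HLA-DMA with HLA-DMB) then exchanges CLIP for antigen peptides, and HLA-DO (HLA-DOA with HLA-DOB), made mainly in B cells, holds HLA-DM in check. The genes share promoter elements: RFX factors (RFX5, RFXAP and RFXANK) bind the X box, NF-Y binds the Y box, an inverted CCAAT, and the coactivator CIITA docks on the assembled factors.

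Promoter windows of RefSeq (GRCh38.p14), from 250 bases before to 50 after each annotated gene start, were found for 9 of the 10 genes. The stretches printed here show which of these letters are found near the start of 6 measured genes; 2 of the 6, HLA-DRB1 and HLA-DQA1, hold the X box core followed by an inverted CCAAT. Capitals mark CCAAT, read on either strand (ATTGG on the other), and the X box core AGNNACNGA, also on either strand.
CD74: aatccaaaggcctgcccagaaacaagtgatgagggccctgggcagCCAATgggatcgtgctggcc
HLA-DRB1: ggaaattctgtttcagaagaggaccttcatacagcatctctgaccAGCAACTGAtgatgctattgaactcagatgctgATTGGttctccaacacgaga
HLA-DQA1: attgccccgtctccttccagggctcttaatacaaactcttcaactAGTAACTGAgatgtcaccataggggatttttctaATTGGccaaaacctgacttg
HLA-DMB: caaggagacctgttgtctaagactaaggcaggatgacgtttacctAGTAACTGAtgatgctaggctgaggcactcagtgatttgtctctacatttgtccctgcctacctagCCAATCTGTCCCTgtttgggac
HLA-DPB1: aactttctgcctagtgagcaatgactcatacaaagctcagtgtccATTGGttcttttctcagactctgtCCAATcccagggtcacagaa
HLA-DOB: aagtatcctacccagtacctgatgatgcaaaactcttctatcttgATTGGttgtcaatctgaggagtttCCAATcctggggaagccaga
The stretches lie at chr5:150412944-150413008 (minus strand), chr6:32589875-32589972 (minus strand), chr6:32637259-32637357 (plus strand), chr6:32941029-32941161 (minus strand), chr6:33075846-33075934 (plus strand) and chr6:32817057-32817145 (minus strand), and each is written 5′ to 3′ on the gene's strand. In HLA-DRB1 and HLA-DQA1 the X box core was followed by ATTGG, with 33 and 34 bases between their first letters. The same order, with ATTGG starting within 60 bases of the core, was found in HLA-DMA and HLA-DOA (34 bases each), in 120 of 35116 promoter windows in all (0.342%) and in 4 of the 9 genes. The motif letters were chosen with these promoters in view, so the 2 shares are a description and no test of enrichment. HLA-DPB1 and HLA-DOB held CCAAT on both strands without the core letters, and CD74 held a single CCAAT, 53 bases before its start. In HLA-DMB the core lay 88 bases before the start, and a second match on the other strand overlapped the CCAAT. One of the 2 windows of HLA-DPA1 held the core 99 bases before the start and the other held neither motif. CCAAT alone was found in 34.6% of all windows and the core alone in 15.3%. CACGTG, the E box that MYC binds with MAX, was found in 7.26% of all windows and in 0 of those of the 9 genes. These are matches of letters and no measure of binding. An X box that departs from the core letters would not be marked, so a window without a match may still hold one.

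**Figure D1:**
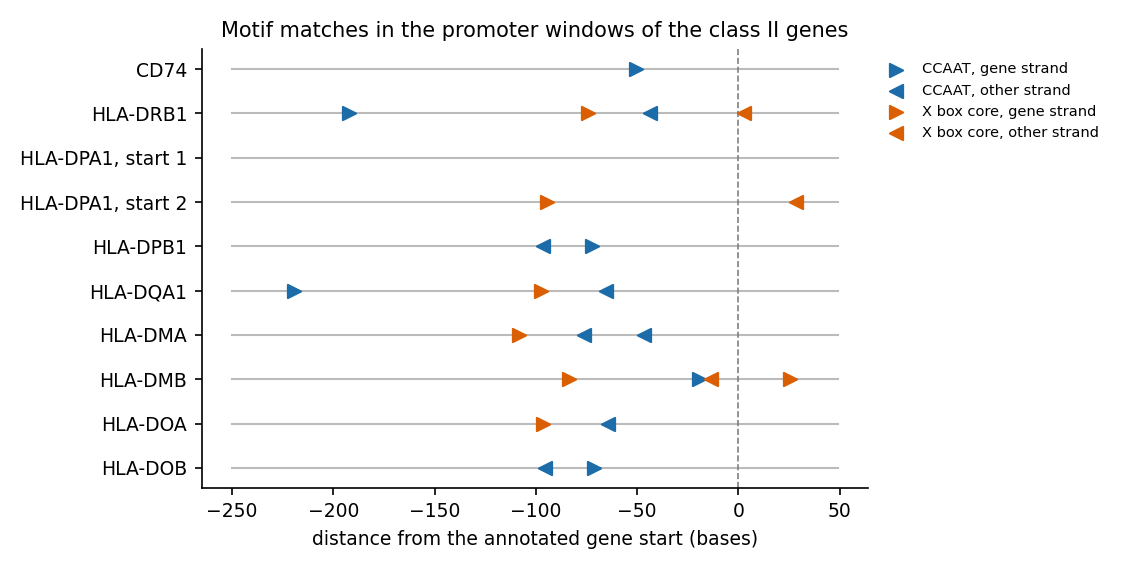
Positions of the CCAAT (blue) and X box core (orange) matches in the promoter windows of the class II genes and CD74, by distance in bases from the annotated gene start (dashed line at 0). Triangles point right for matches on the gene's strand and left for the other strand. HLA-DRB1, HLA-DQA1, HLA-DMA and HLA-DOA show the core followed by CCAAT on the other strand.

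With MYC siRNA, CD74 and HLA-DOB rose, 0 of the 8 genes fell and 6 did not pass the test (limma over all rows, Benjamini-Hochberg adjusted p under 0.05). Over all rows 15.8% were called, 5.56% higher and 10.2% lower. The median of the 8 mean log2 ratios was 0.19, from -0.079 (HLA-DPB1) to 0.50 (HLA-DOB), against -0.0028 over all rows. Above 0 on all 4 arrays were 5 of the 8 genes: CD74, HLA-DRB1, HLA-DQA1, HLA-DMB and HLA-DOB. The same held for 19.4% of all rows. The genes were chosen with earlier results of these data known, so their number and median are a description.

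**Figure D2:**
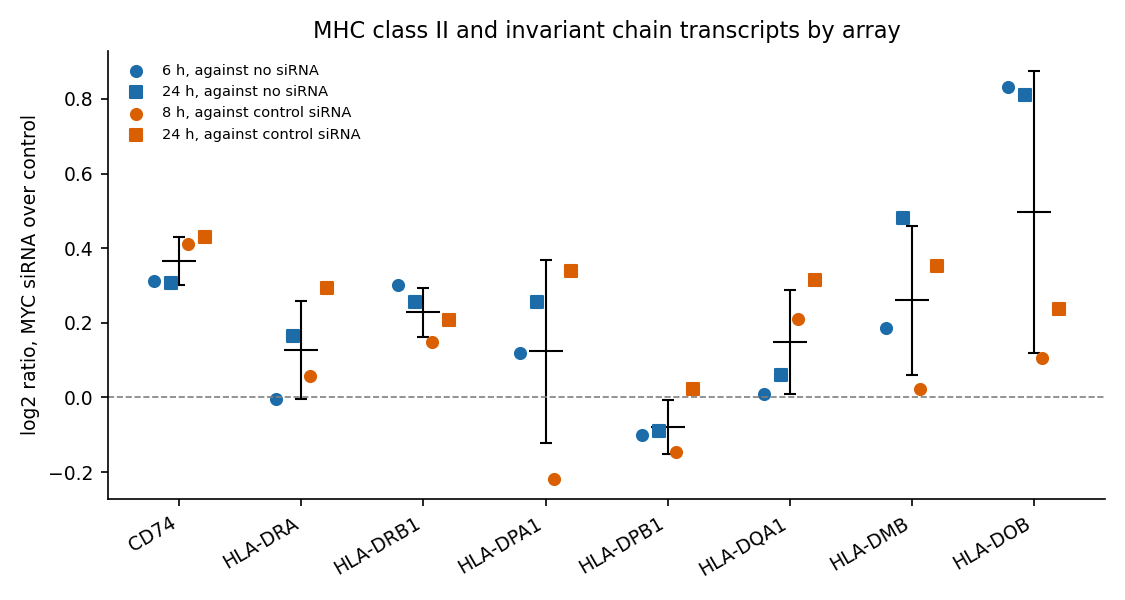
Log2 ratio of MYC siRNA over control (vertical axis) for each of the 8 genes, averaged over its features on each array. Points are single arrays, circles for 6 h or 8 h and squares for 24 h, blue for controls without siRNA and orange for control siRNA; black bars are the mean ± SD of the 4 arrays. CD74 and HLA-DRB1 have SDs of 0.065 and 0.066, while HLA-DOB splits by kind of control.

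CD74, the invariant chain, gave log2 ratios of 0.31 (6 h) and 0.31 (24 h) with no siRNA as control, and 0.41 (8 h) and 0.43 (24 h) with control siRNA. All 4 arrays were positive and close together. The mean of 0.37 ± 0.065 (SD, n = 4) corresponds to a 1.29-fold level, with a 95% interval of 0.18 to 0.55 on the log2 scale and an adjusted p of 0.0252 in limma. With any array left out the mean stayed between 0.34 and 0.39, but the adjusted p lay above the threshold, at 0.0563 to 0.0975. Those fits have fewer residual degrees of freedom, and between 0 and 111 of all rows were called higher in them. Of the 17 genes named here that passed on 4 arrays, MYC among them, 0 passed in all 4 such fits and 13 passed in none.

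HLA-DOB, the beta chain of the HLA-DM inhibitor HLA-DO, had 1 feature. Its log2 ratios were 0.83 (6 h) and 0.81 (24 h) with no siRNA as control, and 0.11 (8 h) and 0.24 (24 h) with control siRNA. All were positive, and the 2 sets did not overlap. The mean was 0.50 ± 0.38 (SD, n = 4), a 1.41-fold level, with an adjusted p of 0.0388 in limma. Leaving out the 6 h array gave 0.38 (adjusted p = 0.13), and leaving out the 24 h array with no siRNA as control gave 0.39 (adjusted p = 0.122).

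HLA-DMB, a chain of the peptide exchanger HLA-DM, gave 0.19 (6 h) and 0.48 (24 h) with no siRNA as control, and 0.022 (8 h) and 0.35 (24 h) with control siRNA. Every value was positive and the 24 h values were the higher ones. The mean of 0.26 ± 0.20 (SD, n = 4) had an adjusted p of 0.0945 in limma (95% interval 0.040 to 0.48). HLA-DMB did pass with time and kind of control as terms (adjusted p = 0.0392), a fit in which 12.6% of all rows were called higher.

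The chains that bind peptide and meet the T cell receptor did not pass. HLA-DRB1, the DR beta chain, was at 0.30 (6 h) and 0.26 (24 h) with no siRNA as control, and at 0.15 (8 h) and 0.21 (24 h) with control siRNA, with a mean of 0.23 ± 0.066 (SD, n = 4; limma adjusted p = 0.085). As averages over features, its arrays lay as close together as those of CD74. Its features did not: among those with values on all arrays, the SD between feature means was 0.35, against 0.18 for CD74. HLA-DRA, the DR alpha chain, had -0.0042 (6 h) and 0.16 (24 h) with no siRNA as control, and 0.057 (8 h) and 0.29 (24 h) with control siRNA. The mean of HLA-DRA was 0.13 ± 0.13 (SD, n = 4), with a 95% interval of -0.071 to 0.33. Over features with values on all arrays the mean of HLA-DRA was 0.21 (limma adjusted p = 0.106). HLA-DRB features may also detect other DRB genes, whose sequences are close, so that the DRB1 value is uncertain in this respect.

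HLA-DPA1, the DP alpha chain, was the most variable of the 3 alpha chains over arrays: 0.12 (6 h) and 0.26 (24 h) with no siRNA as control, and -0.22 (8 h) and 0.34 (24 h) with control siRNA. The 8 h array was the lone negative one, and the mean was 0.12 ± 0.25 (SD, n = 4; 95% interval -0.11 to 0.36). Leaving out that array gave HLA-DPA1 0.24, and leaving out the 24 h array with control siRNA gave 0.053. HLA-DPB1, its partner, was the 1 gene of the 8 with a mean below 0, at -0.079 ± 0.072 (SD, n = 4; 95% interval -0.26 to 0.11). Its values were -0.10 (6 h) and -0.089 (24 h) with no siRNA as control, and -0.15 (8 h) and 0.023 (24 h) with control siRNA. Over features with values on all arrays the mean of HLA-DPB1 was -0.0007. HLA-DQA1, the DQ alpha chain, had 0.0095 (6 h) and 0.061 (24 h) with no siRNA as control, and 0.21 (8 h) and 0.31 (24 h) with control siRNA, with a mean of 0.15 ± 0.14 (SD, n = 4; 95% interval -0.052 to 0.35). Without the 24 h array with control siRNA the means of HLA-DQA1 and HLA-DRA were 0.093 and 0.072, and neither passed with any array left out. HLA-DQB1, the DQ beta chain, which is not among the 10 named genes, averaged -0.053 ± 0.11 (SD, n = 4; limma adjusted p = 0.689). In order of mean log2 ratio HLA-DOB came before CD74, HLA-DMB, HLA-DRB1, HLA-DQA1, HLA-DRA, HLA-DPA1 and HLA-DPB1. The 95% interval of each overlapped that of its neighbour in this order.

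Single features showed how far the gene means rested on some of them. Of 37 features with values on all arrays, 12 were called higher and 0 lower in a fit of single features, in which 7.09% of all 10161 features were called higher and 12.3% lower. Features of 1 gene are not independent, and 7 of the 12 were those of CD74. The other 5 were 2 of HLA-DRB1 and 1 each of HLA-DRA, HLA-DMB and HLA-DOB, while 0 of the 11 of HLA-DPA1, HLA-DPB1 and HLA-DQA1 passed in either direction. Over all values of the 46 features, 126 of 169 were above 0. By array these were 34 of 44 (6 h) and 29 of 43 (24 h) with no siRNA as control, and 26 of 41 (8 h) and 37 of 41 (24 h) with control siRNA. The shares of 77.3%, 67.4%, 63.4% and 90.2% stand beside 48.5%, 47.2%, 50.9% and 51.7% of all features on the same arrays.

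The 12 features of CD74 ranged in mean from 0.058 to 0.62, and 42 of their 45 values were above 0. The 7 that passed had means of 0.41 to 0.62. The SD between the means of its 10 complete features was 0.18, larger than the SD of 0.065 between arrays. HLA-DMB ranged from -0.12 to 0.47 over 7 features. Its feature with the highest mean gave 0.51 (6 h) and 0.81 (24 h) with no siRNA as control, and 0.025 (8 h) and 0.52 (24 h) with control siRNA. HLA-DRB1 ranged from -0.31 to 0.65 over its 7, and the highest of these gave 1.53 at 6 h against no siRNA but -0.019 at 8 h against control siRNA. The features of HLA-DPA1 lay close together, with means of 0.073 to 0.18. The features of HLA-DPB1, in contrast, ran from -0.56, with values on 2 arrays, to 0.17. Which part of a transcript each feature detects was not analysed here.

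**Figure D3:**
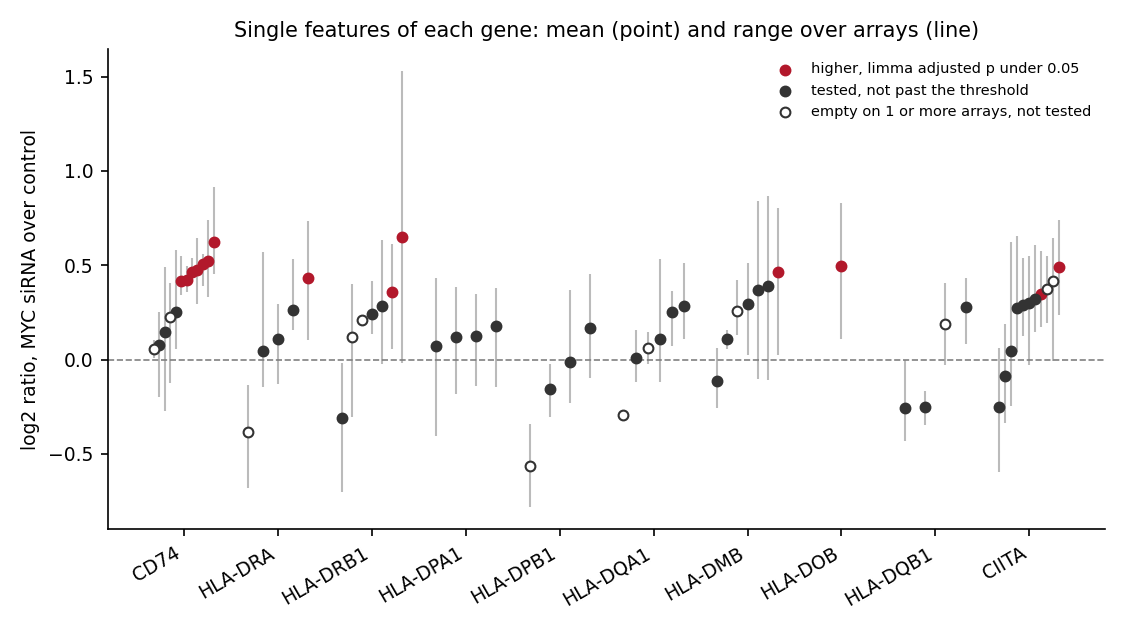
Mean log2 ratio of MYC siRNA over control for every feature of the 8 genes, HLA-DQB1 and CIITA (points, sorted within each gene), with the range over the arrays as a grey line. Red points passed the test of single features, filled black points did not, and open points had no value on 1 or more arrays and were not tested. CD74 has 7 red points of 12, and HLA-DPA1, HLA-DPB1 and HLA-DQA1 have 0.

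Between 24 h and the early harvests (6 h or 8 h), 0 of the 8 genes passed, beside 0.118% of all rows called in either direction and 0.0294% called higher at 24 h (limma, kind of control as a second term). Unadjusted p under 0.05 was found for 0 of the 8 genes and for 687 of 6798 rows. Both 24 h values lay above both early values for HLA-DRA, HLA-DPA1, HLA-DPB1 and HLA-DMB, 4 of the 8 genes, and for 17.4% of all rows. For HLA-DPB1 this order rests on an uneven mix of features. A feature with values against no siRNA alone, -0.78 (6 h) and -0.34 (24 h), entered its averages there. The features of HLA-DPB1 with values on all arrays differed by time by -0.35, 0.0125 and 0.39. Of the 37 single features tested 0 passed, beside 0.728% of all features. HLA-DPA1 averaged 0.30 at 24 h and -0.049 early, a difference of 0.35 (95% interval -0.050 to 0.74; limma adjusted p = 0.592). HLA-DMB averaged 0.42 at 24 h and 0.10 early, a difference of 0.31 (95% interval -0.070 to 0.70; limma adjusted p = 0.64). For HLA-DRA the difference was 0.20 (-0.18 to 0.59). CD74 and HLA-DRB1 differed by 0.0072 and 0.0062, with intervals of -0.38 to 0.39 for each. An interval of this width holds changes as large as the CD74 mean itself in either direction. With 1 residual degree of freedom these intervals rest mostly on the spread pooled over all rows.

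Between the 2 kinds of control, 0 of the 8 genes passed after adjustment, with 0.0883% of all rows called. HLA-DOB averaged 0.82 against no siRNA and 0.17 against control siRNA, a difference of 0.65 (95% interval 0.26 to 1.03), with an unadjusted p of 0.00228 and an adjusted p of 0.13 in limma. In the fit of single features 1 of 37 passed, beside 0.561% of all features. It was the HLA-DRB1 feature with the highest mean, at a difference of 1.10 (adjusted p = 0.0095), and the HLA-DOB feature did not pass (adjusted p = 0.146). HLA-DRB1, whose averages include its called feature, had both values against no siRNA above both against control siRNA, while CD74 and HLA-DQA1 had both below. The same held for 15.6% of all rows upward and 19.0% downward. The called feature of HLA-DRB1 gave 1.53 (6 h) and 0.88 (24 h) against no siRNA. In the other features of HLA-DRB1 with values on all arrays the difference ran from -0.46 to 0.16. The order of HLA-DRB1 without its called feature was not tested. HLA-DQA1 averaged 0.035 against no siRNA and 0.26 against control siRNA, a difference of -0.23 (95% interval -0.61 to 0.16). For CD74 the difference was -0.11 (-0.49 to 0.27). The kind of control goes with the array identifiers, which fall in 2 ranges, so batch and control cannot be told apart. Early harvest differed as well, at 6 h with no siRNA and 8 h with control siRNA as control. MYC itself averaged -1.15 against no siRNA and -0.64 against control siRNA (difference -0.50, limma adjusted p = 0.313).

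**Figure D4:**
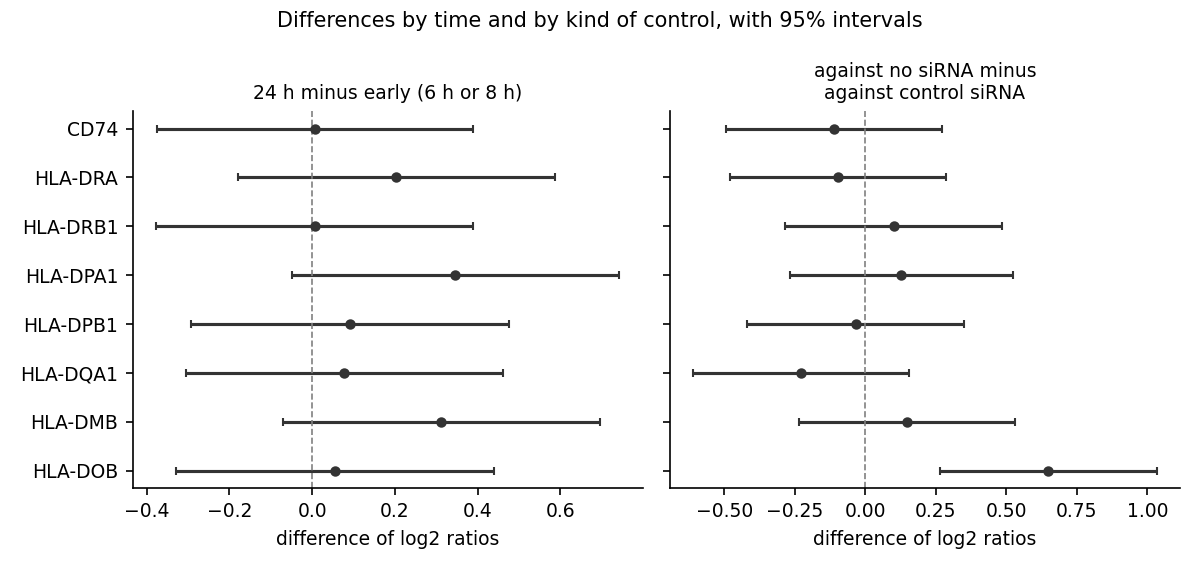
Differences of log2 ratios for the 8 genes (points) with limma's 95% intervals (bars): 24 h minus early on the left, arrays against no siRNA minus arrays against control siRNA on the right. All 8 intervals on the left include 0, and on the right the interval of HLA-DOB, 0.26 to 1.03, is the 1 that does not.

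Of the factors that act on class II promoters, RFX5 rose and the histone deacetylase gene HDAC2 fell, and 10 of 12 tested genes of that list did not pass (median -0.028). The calls of this list lay near the share over all rows, 15.8% in either direction, and are a description. That share also stands beside the list counts below. RFX5, the DNA-binding subunit of the RFX complex, gave 0.26 (6 h) and 0.46 (24 h) with no siRNA as control, and 0.26 (8 h) and 0.30 (24 h) with control siRNA. Its mean was 0.32 ± 0.093 (SD, n = 4; limma adjusted p = 0.0367), from 2 features with means of 0.14 and 0.50. With any array left out RFX5 stayed between 0.27 and 0.34 and did not pass (adjusted p 0.0809 to 0.112). RFXAP, of the same complex, averaged -0.24 ± 0.16 and did not pass (adjusted p = 0.104); its 2 features had opposite signs, at -0.62 and 0.15. HDAC2 fell by 0.49 (SD 0.18, n = 4; adjusted p = 0.0192), and SMARCA4, the BRG1 ATPase of chromatin remodelling, was at -0.33 (adjusted p = 0.0518).

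CIITA, the class II coactivator, is named for its role after its values were seen, as are RFXANK, NFYA and NFYC. CIITA had 11 features and log2 ratios of 0.11 (6 h) and 0.30 (24 h) with no siRNA as control, and 0.046 (8 h) and 0.40 (24 h) with control siRNA. All 4 were positive, with both 24 h values above both early ones. The mean was 0.22 ± 0.17 (SD, n = 4; limma adjusted p = 0.131), and the median of its features gave 0.32 (adjusted p = 0.0499). CIITA averaged 0.35 at 24 h and 0.080 early, a difference of 0.27 (95% interval -0.11 to 0.66; limma adjusted p = 0.695). Of its 9 complete features, 2 passed as higher and 0 as lower. RFXANK was at 0.13 ± 0.23, NFYA, a subunit of NF-Y, at 0.12 ± 0.097, and NFYC at -0.053 ± 0.085 (SD, n = 4 each), and none of these 3 passed.

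In endosomal processing 0 of 10 tested genes passed, with a median of 0.11. CTSB (cathepsin B) was at 0.24 ± 0.12 and its inhibitor CSTB (cystatin B) at 0.25 ± 0.12, with adjusted p of 0.0831 and 0.0796 in limma. CST3 (cystatin C) was at 0.25 ± 0.22 (SD, n = 4). CTSC, the dipeptidyl peptidase cathepsin C, was at -0.37 ± 0.28 (adjusted p = 0.0554), with its lowest value, -0.77, on the 24 h array against no siRNA. Named for their role after their values were seen, CTSS (cathepsin S), which makes the last cuts in the invariant chain, was at -0.20 ± 0.22, and IFI30, the lysosomal thiol reductase GILT, at 0.14 ± 0.066 (SD, n = 4 each); neither passed.

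In turnover and transport of class II 0 of 7 genes passed (median 0.0096). MARCHF1, the ubiquitin ligase that sends class II molecules to lysosomes, averaged 0.26 ± 0.21 (SD, n = 4; limma adjusted p = 0.101), and CD83, which opposes MARCHF1, 0.12 ± 0.16. VPS4B, an ATPase of the ESCRT machinery, was at -0.34 ± 0.28 and HGS, an ESCRT component, at 0.13 ± 0.082. Among 18 tested inducers of class II and B-cell regulators 0 passed, with a median of -0.0005. PRDM1 (Blimp-1), which in plasma cell differentiation shuts off CIITA, was at 0.35 ± 0.28 (adjusted p = 0.0631), with 0.24 (6 h) and 0.66 (24 h) with no siRNA as control, and 0.016 (8 h) and 0.49 (24 h) with control siRNA. The ETS factor gene SPIB averaged 0.26 ± 0.13, the kinase gene JAK2, which signals from the interferon gamma receptor, 0.18 ± 0.041 and IRF2 0.15 ± 0.12 (SD, n = 4 each).

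**Figure D5:**
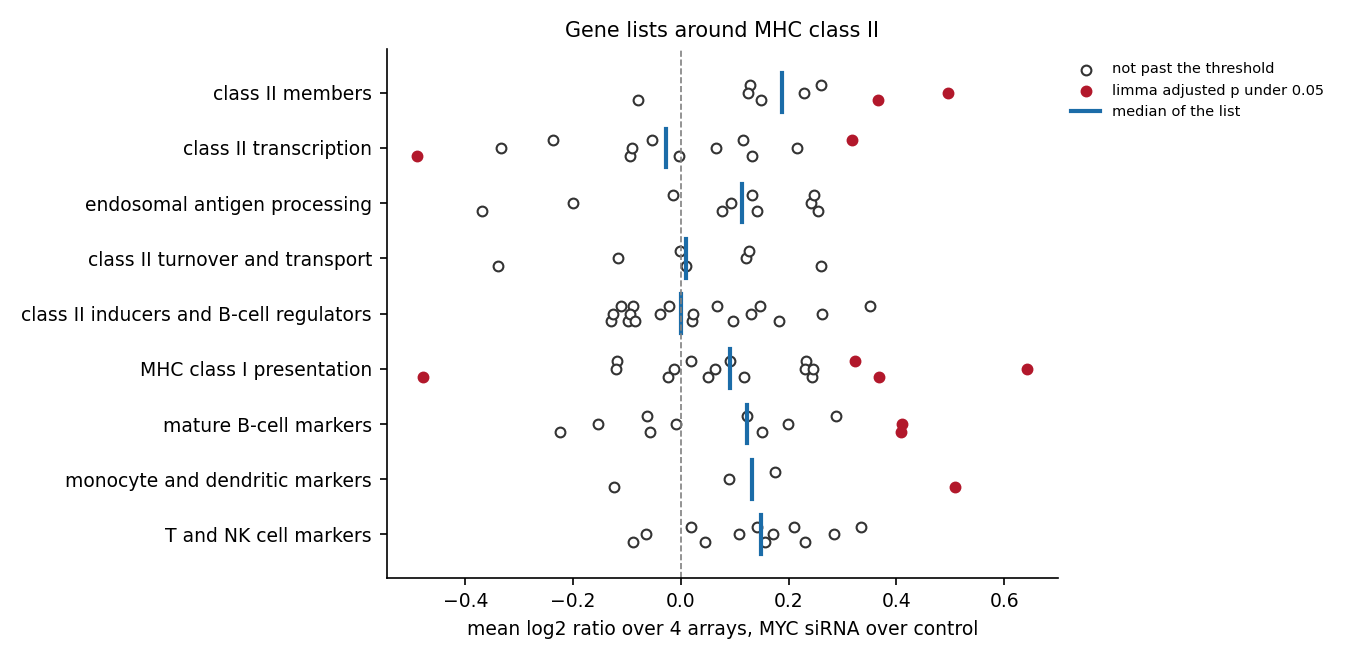
Mean log2 ratio over the 4 arrays (horizontal axis, MYC siRNA over control) of every tested gene in each list; red points passed the test, open points did not, and blue bars are list medians. The class II set has a median of 0.19 with 2 red points, and the class II transcription list a median of -0.028 with 1 red point on each side of 0.

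MHC class I presentation, the route for peptides from the cytosol, was set beside class II. The list also held class I-like genes outside that route, CD1C among them. Of 17 tested genes 3 rose, 1 fell and 13 did not pass, with a median of 0.092. Over all rows 5.56% were called higher and 10.2% lower, which applies also to the B-cell markers below. CD1C, which presents lipids, averaged 0.64 ± 0.29, TAPBP (tapasin) 0.37 ± 0.12 and B2M, the common light chain, 0.32 ± 0.18 (SD, n = 4 each), with adjusted p of 0.0179 to 0.0475 in limma. The chaperone gene CANX fell by 0.48 (SD 0.32, n = 4; adjusted p = 0.0321). A difference between class I and class II genes was not tested. Of 11 mature B-cell markers, CD79A (0.41 ± 0.27) and CD72 (0.41 ± 0.32) rose, 0 fell and 9 did not pass, with a median of 0.12. Both had their highest value at 24 h with no siRNA as control; leaving that array out gave 0.28 for CD79A and 0.26 for CD72 (adjusted p = 0.105 and 0.126). CD52 at 0.29 ± 0.18 and BLNK at -0.22 ± 0.17 did not pass.

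Markers of other cell types were set beside the class II genes. Of 4 tested monocyte and dendritic genes ITGAX (CD11c) rose, 0 fell and 3 did not pass, with a median of 0.13. The share called higher over all rows was 5.56%. ITGAX gave 0.18 (6 h) and 0.88 (24 h) with no siRNA as control, and 0.14 (8 h) and 0.83 (24 h) with control siRNA (mean 0.51 ± 0.41, SD, n = 4; limma adjusted p = 0.0407). CD68 was at 0.17 ± 0.23, ITGAM at 0.090 ± 0.087 and CD1A at -0.12 ± 0.17 (SD, n = 4 each). Of 12 tested T and NK cell genes 0 passed, with a median of 0.15 and array medians of 0.011 (6 h) and 0.19 (24 h) with no siRNA as control, and 0.075 (8 h) and 0.22 (24 h) with control siRNA. CD4 was at 0.33 ± 0.24, LCK at 0.28 ± 0.23, CD3E at 0.23 ± 0.30 and CD8A at 0.21 ± 0.11 (SD, n = 4 each). The class II medians on the same arrays were 0.15 and 0.26 against no siRNA, and 0.082 and 0.30 against control siRNA. All RNA came from the line OCI-Ly10, so these ratios are changes in that line and no count of other cell types. Any link of these markers to the class II values was not tested.

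Among 3946 other named genes, those whose 4 log2 ratios lay closest to those of CD74 by Euclidean distance were ITGA8 (0.095), LILRA4 (0.127), SLCO3A1 (0.144), FKBP15 (0.147) and PTPN1 (0.148). ITGA8 encodes an integrin alpha chain, LILRA4 a receptor of plasmacytoid dendritic cells, and PTPN1 the phosphatase PTP1B. Their means ran from 0.30 (SLCO3A1) to 0.41 (ITGA8), and ITGA8 over complete features alone was at 0.23. The search favours genes with similar ratios on all arrays, and 4 arrays are few for such a measure.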

How the data were processed

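The sources were the authors' deposited log2 ratios, 1 per feature and array, in a value table of 4 two-colour arrays. RNA was prepared with Trizol and labelled by oligo dT-primed reverse transcription, per the labels' protocols. No label or header states the background correction, the normalization, the log base or why cells are empty. Base 2 was assumed, and Cy5 over Cy3 was taken from the labelled dyes. Platform symbols were updated by Entrez ID (10124 of 15154 features matched). Features of 1 symbol were averaged on each array, and rows with a value on all 4 arrays were tested with limma 3.58.1 in R 4.3.3 (lmFit and eBayes) and Benjamini-Hochberg adjustment over all 6798 rows at 0.05: the mean against 0 (3 residual degrees of freedom, 6.31 prior), and time and kind of control as 2 terms (1 residual, 17.5 prior). Precision is limited by having 4 arrays, with a median standard error of 0.0951 for a mean. The code was tested on simulated data. Members, lists, tests and alternatives were chosen with earlier results of these data known. Named were the members, MYC, the list genes past a test, filled up to 4 per list by size of the mean, and the 5 nearest to CD74. Motif letters were chosen with the promoters in view.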

Additional observations from a re-analysis of the deposited data

Results flagged for a closer look

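Among 53 named genes, CD79A, which signals for the B-cell receptor, had 1 array far from the others: 0.805 on the 24 h array with no siRNA as control, beside 0.32 (6 h) with the same kind of control, and 0.27 (8 h) and 0.24 (24 h) with control siRNA. Leaving that array out gave CD79A a mean of 0.28, with an adjusted p of 0.105 in limma. Dixon's test flags about 1 group in 20 by chance. None of the 8 class II genes met it, and none of the 53 genes passed the adjusted test of time or of kind of control.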

How the results depend on the processing

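Each ratio already pairs MYC siRNA with its control on the same array. No further pairing between arrays was used for the mean, because they form 1 group and their numbers follow the order of listing alone. The count of class II genes called higher with MYC siRNA, 2, was 1 when rows with values on at least 2 arrays entered (HLA-DOB adjusted p = 0.0535), 0 with a trend and robust prior (CD74 adjusted p = 0.0605; the trend here follows the mean ratio, as no intensity was used), 12 over single features, which count each feature, and between 0 and 1 with 1 array left out. It was 3 with time and control as terms. The cause was not tested, beyond the fewer degrees of freedom with 3 arrays. CD74 lay between 0.34 and 0.42 over the 12 gene-level alternatives. Rows called higher and lower, 378 and 695, were 856 and 1124 with time and control as terms, 1 and 440 with the trend, and 0 to 111 and 0 to 260 with 1 array left out. By kind of control 1 class II gene passed with the median of features (HLA-DOB, adjusted p = 0.0449), and the class II median of 0.034 moved between -0.12 and 0.091 with 1 array left out. Counts by time (2 higher, 6 lower) and control (0 and 6) were 24 and 74, and 47 and 115, with the median of features, and 17 and 44, and 31 and 56, with centred arrays. Over complete features they were 6 and 20, and 6 and 31, and with scaled arrays or a single term 0 for each. With 1 array left out they ran from 0 to 2 and 0 to 1 by time, and from 0 to 2 and 1 to 29 by control.

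Differences of uncalled genes turned sign in places. By time, CD74 was -0.019 with the median of features, -0.018 over complete features and -0.069 with scaled arrays; HLA-DPB1 was -0.10 with the median of features, and HLA-DRB1 -0.058 and HLA-DOB -0.14 with scaled arrays. With 1 array left out CD74 ran from -0.054 to 0.069, HLA-DQA1 from -0.049 to 0.20, HLA-DRB1 from -0.071 to 0.083 and HLA-DOB from -0.31 to 0.42. By control, HLA-DPB1 was 0.054 with the median of features, 0.12 over complete features and 0.0026 with scaled arrays, and HLA-DRA was 0.027 over complete features. With 1 array left out HLA-DMB ran from -0.019 to 0.31, HLA-DPA1 from -0.15 to 0.41, HLA-DPB1 from -0.12 to 0.052 and HLA-DRA from -0.21 to 0.023. Adjusted p in limma was at least 0.843 for each value that turned sign. Signal over background is unknown without intensities.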
